A study of Mus musculus with 48 samples.

Results

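The 9 genes described here encode transcription factors of the ganglionic eminences, the swellings of the embryonic ventral forebrain: Gsx2, Dlx1, Dlx2, Dlx5, Dlx6, Sp8, Sp9, Nkx2-1 and Lhx6. They were chosen by name, as 9 of the 24444 genes in the deposited table, and each was present once. The samples were RNA from the dissected cortex of male C57BL/6J mice, either wild type (WT) or heterozygous for the Chd8 V986*/+ allele (HET), in which a stop codon interrupts the gene of a chromatin remodeler. Both genotypes were sampled as embryos on day 14.5 (E14.5) and as mice 1 month, 6 months or 12 months old, with 6 mice per genotype and age, so 48 samples in 8 groups. The allele came from a single founder bred to C57BL/6J, it is present in the whole animal, and the labels give no litter for any sample. The values are variance-stabilised expression levels on a log2 scale, computed by the authors, so for a gene with many reads a difference of 1 is about a factor of 2. They hold no read counts, so the depth of a sample cannot be read from them. Their most frequent value, 2.14, is the floor, the value of a gene with next to no reads.

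The ganglionic eminences make the inhibitory neurons of the forebrain, while the cortical wall above them, the pallium, makes the excitatory neurons of the cortex. Gsx2 acts in dividing progenitors of the lateral and caudal eminences, upstream of the Dlx genes, which sit in the genome as convergent pairs and drive the inhibitory fate in nearly all eminence lineages, and Sp8 and Sp9 act in lateral and caudal eminence lineages that include the newborn neurons of the olfactory bulb. Nkx2-1 sets the identity of the medial eminence and switches on Lhx6, which is kept in the cortical interneurons born there for the rest of life.

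Chd8 itself checks the genotype labels. At E14.5 its level was 12.33 at the lowest, 12.60 at the median and 12.66 at the highest in WT, against 11.60, 11.98 and 12.03 in HET. At each of the 4 ages every HET mouse lay below every WT mouse. In HET, Chd8 fell by 0.63 in embryos (adjusted p 0.0261 in limma over all genes). It fell by 0.67 at 1 month (3.01e-06), fell by 0.64 at 6 months (1.07e-07) and fell by 0.54 at 12 months (0.00261).

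The tissue label was checked against markers of the pallium. At E14.5 the summed level of 15 pallial genes was 14.97, 15.31 and 15.87 (lowest, median, highest) in WT and 15.49, 15.59 and 15.88 in HET, with Neurod6, Tbr1 and Lhx2 the most abundant. The 9 eminence factors were also well above the floor in all 12 embryos, among them Nkx2-1, which progenitors of the pallium do not make, at 9.45 or more. In bulk tissue, fewer cells of a type and less RNA per cell cannot be told apart.

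The genes lie on 4 chromosomes. In the mm9 annotation Dlx1 (2:71366170-71372038, plus strand) and Dlx2 (2:71381466-71384811, minus strand) are 9427 bases apart, and Sp9 (2:73109982-73122763, plus strand) and Lhx6 (2:35937470-35960928, minus strand) are on the same chromosome. Dlx6 (6:6813334-6818568, plus strand) and Dlx5 (6:6827805-6832085, minus strand) are 9236 bases apart. Gsx2 is at 5:75471489-75473918 on the plus strand, Nkx2-1 at 12:57632922-57637895 on the minus strand and Sp8 at 12:120084802-120091051 on the plus strand. Dlx1 lies inside the antisense gene Dlx1as, Dlx6 inside the antisense gene Dlx6os1, and 1602 bases of Sp9 overlap Cir1 on the other strand. The study's methods describe stranded libraries, but whether the transcript counting used strand is not stated, so reads of these 3 genes and of their antisense partners may not be fully separate.

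Promoters of 7 of the 9 genes were in the RefSeq table of 32851 mouse promoters (GRCm38.p6, 250 bases before to 50 after each start). The windows shown are those of Sp8 and Sp9, which hold the longest run of bases shared by promoters of 2 of these genes, and of Dlx2, which shares another run with Sp9. Both runs are in capitals.
Sp9, chr2:73271806-73271924, plus strand: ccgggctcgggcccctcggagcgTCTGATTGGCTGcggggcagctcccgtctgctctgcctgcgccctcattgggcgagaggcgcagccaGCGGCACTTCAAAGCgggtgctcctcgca
Sp8, chr12:118847168-118847197, plus strand: cgcctccGCGGCACTTCAAAGCcggagagg
Dlx2, chr2:71546755-71546874, minus strand: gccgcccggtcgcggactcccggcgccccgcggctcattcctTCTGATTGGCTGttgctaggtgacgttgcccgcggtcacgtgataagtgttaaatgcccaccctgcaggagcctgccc

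The 15 bases GCGGCACTTCAAAGC, at position −30 from the start of Sp9 and −58 from 1 of the 3 RefSeq starts of Sp8, were present in 2 of the 32851 promoters (0.00609%), those of Sp8 and Sp9. The Sp8 window lies within an exon of Sp8 in the mm9 annotation, so there it is downstream of another start. The 15 bases contain the reverse of CTTTGAA, the core letters bound by TCF/LEF proteins, which on either strand occur in 5.14% of promoters. The 12 bases TCTGATTGGCTG of Dlx2 and Sp9 were in 98 promoters (0.298%) and contain the CCAAT box in reverse, which occurs on either strand in 37.4% of promoters. The homeodomain core TAATTA was in 1 promoter window of the 7 genes, that of Sp8, against 5.29% of all promoters. A match of letters is a description and shows no bound protein.

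At E14.5, HET and WT embryos were compared to see whether a reduced dose of Chd8 moved these genes while the eminences are producing neurons. None of the 9 genes passed the test (0 of 9 called at an adjusted p under 0.1 by limma, against 0.00593 percent of the 16877 genes tested), and 3 of the 9 had an unadjusted p under 0.05, as did 769 of the 16877. The mean of each gene was nonetheless higher in HET, in 9 of 9, with differences of 0.12 to 0.28 and a median of 0.22, where the median over all genes tested was 0.00102. The 9 genes share the same embryos and many of them moved together, so they are not 9 independent observations of this difference.

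Gsx2, the progenitor gene, stood at 6.96, 7.12 and 7.92 (lowest, median, highest) in the 6 WT embryos and at 7.11, 7.43 and 7.66 in the 6 HET embryos. The highest value was WT embryo 6, the remaining WT embryos were at 7.21 or less, and the groups overlapped. The difference was 0.19 (SE 0.15).

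Among the Dlx genes, Dlx1 was at 11.54, 11.69 and 12.23 in WT and at 11.86, 12.00 and 12.16 in HET. Dlx2 was at 11.00, 11.12 and 11.82 in WT and at 11.25, 11.45 and 11.64 in HET. For both genes WT embryo 6 was the highest of all 12, each HET embryo was above the WT median, and the groups overlapped. Dlx5 was at 9.46, 9.60 and 10.13 in WT and at 9.73, 9.91 and 10.14 in HET, with the sixth embryo of each genotype highest. Dlx6 was at 7.71, 8.07 and 8.30 in WT and at 8.19, 8.22 and 8.38 in HET. The low Dlx6 value was WT embryo 4, the HET embryos lay close together, and WT embryo 6 was above all HET embryos but 1. The differences were 0.23 for Dlx1 (SE 0.10), 0.22 for Dlx2 (SE 0.12), 0.23 for Dlx5 (SE 0.10) and 0.20 for Dlx6 (SE 0.085). The 3 genes with an unadjusted p under 0.05 were Dlx1, Dlx5 and Dlx6, and the exact permutation p of Dlx6, 0.0152, was the lowest of 36 such tests (9 genes at 4 ages), before any adjustment.

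Sp8 was at 8.50, 8.91 and 9.67 in WT and at 8.88, 9.28 and 9.69 in HET. Embryos 4, 5 and 6 had the 3 highest Sp8 values in both genotypes, and the groups overlapped. Sp9 was at 9.98, 10.31 and 10.85 in WT and at 10.12, 10.42 and 10.76 in HET, again with embryos 4, 5 and 6 highest in both. The differences were 0.28 for Sp8 (SE 0.19) and 0.12 for Sp9 (SE 0.14).

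Nkx2-1, the medial eminence gene, was at 9.45, 10.04 and 10.36 in WT and at 9.85, 10.23 and 10.47 in HET. Embryo 1 was lowest and embryo 5 highest in both genotypes, and the groups overlapped. Its target Lhx6 was at 10.32, 10.45 and 11.01 in WT and at 10.46, 10.76 and 10.95 in HET. For Lhx6, WT embryo 6 was again the highest of the 12, and the other WT embryos lay at 10.49 or less, below 5 of the 6 HET embryos. The differences were 0.21 for Nkx2-1 (SE 0.14) and 0.22 for Lhx6 (SE 0.11), and the adjusted p-values of the 9 genes in limma ran from 0.982 to 0.983.

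**Figure D1:**
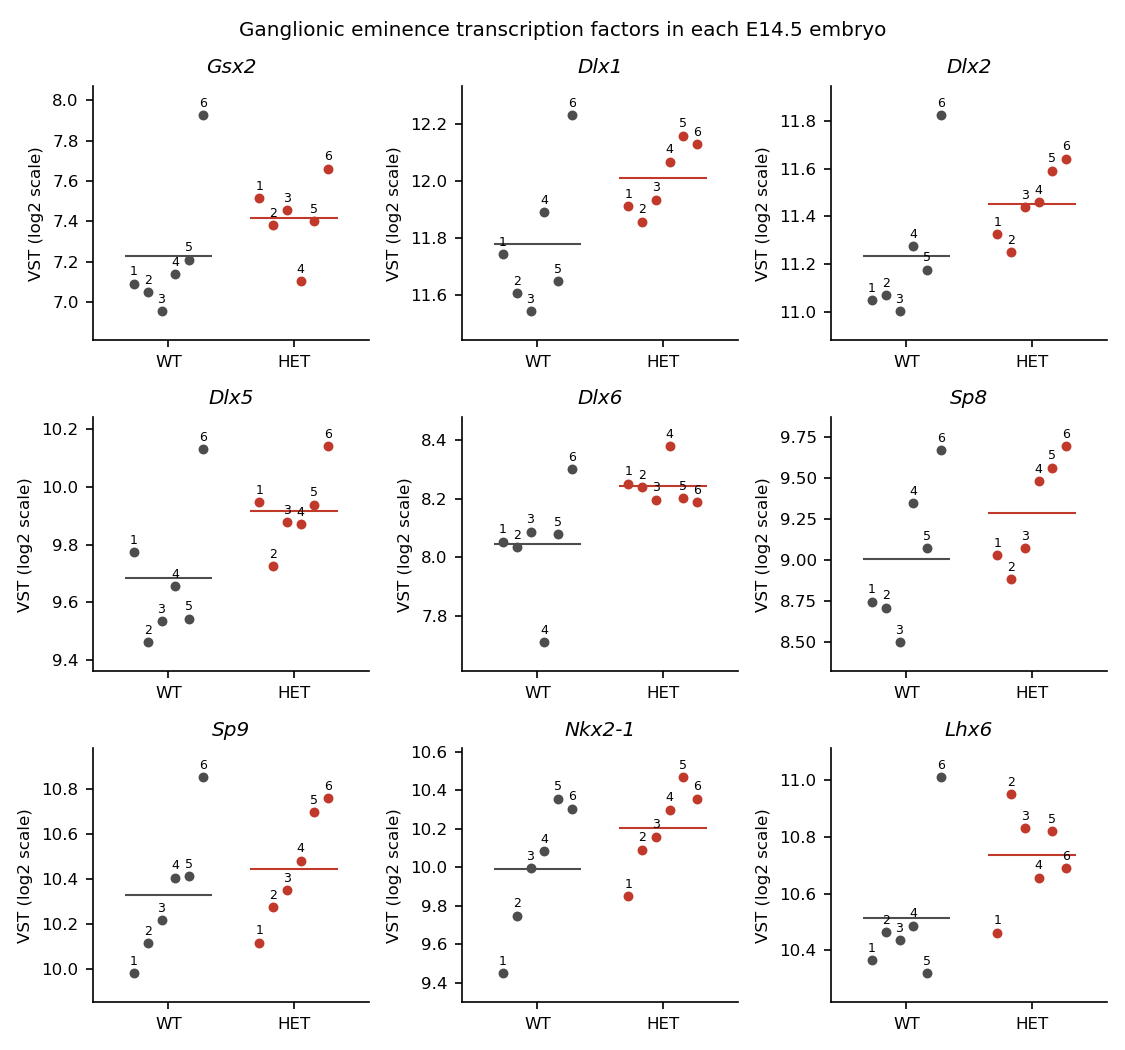
Level of each eminence factor (variance-stabilised, log2 scale) in every E14.5 embryo, WT in grey and HET in red, each point numbered by its replicate, with a line at the group mean; the vertical axes differ between genes and do not start at 0. WT embryo 6 is the highest WT embryo in 8 of the 9 panels, and the groups overlap in all 9.

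Single embryos bore on this comparison. The mean over the 9 genes was 9.58, 9.58, 9.59, 9.78, 9.76 and 10.25 in WT embryos 1 to 6 and 9.82, 9.85, 9.92, 9.98, 10.09 and 10.14 in HET embryos 1 to 6. WT embryo 6 was above every HET embryo, and the other 5 WT embryos were below every HET embryo. Without WT embryo 6 the differences ran from 0.22 for Sp9 to 0.41 for Sp8, the adjusted p-values from 0.155 to 0.474, and 0 of the 9 genes passed the test. Without embryo 6 of both genotypes, a choice made after seeing the data, they ran from 0.16 to 0.33. Other embryos moved it the other way: without WT embryo 1 the difference was 0.11 for Nkx2-1 and 0.05 for Sp9, without WT embryo 3 it was 0.18 for Sp8, and without WT embryo 4 it was 0.13 for Dlx6. For Sp9 it was also 0.07 without WT embryo 2, 0.07 without HET embryo 5 and 0.05 without HET embryo 6, but 0.18 without HET embryo 1. Gsx2 differed by −0.04 when embryos 4 to 6 alone were compared.

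Markers of other tissues were summed in the same embryos. Of 15 tested markers of midbrain, hindbrain and spinal cord (of 19 in the list), 0 were higher and 15 lower in HET, with a median difference of −1.25. Against 769 of the 16877 genes tested, 5 of these markers had an unadjusted p under 0.05 in limma, and 0 were called. Their summed level was 9.81, 11.86, 11.69, 11.19, 12.40 and 8.88 in WT embryos 1 to 6 and 9.12, 9.11, 10.99, 10.44, 9.88 and 9.85 in HET embryos 1 to 6. Gata3, Lmx1a and Gata2 were the most abundant, and no marker of the list was at the floor in all 12 embryos. WT embryo 6, highest for the eminence factors, was the lowest of the 12 for this list, and WT embryos 2 to 5 were the 4 highest. With the mean of this list as a covariate, a choice made after seeing the data, the differences were 0.11 for Dlx1, Dlx2 and Lhx6, 0.09 for Dlx5, 0.17 for Dlx6, 0.04 for Gsx2, 0.16 for Sp8 and 0.07 for Sp9, lower than before in 8 of 9, and 0.30 for Nkx2-1, with 0 called. The markers of the pallium also had a higher mean in HET, 13 of 15, with a median difference of 0.29, 5 with an unadjusted p under 0.05 and 0 called. Of 14 markers of diencephalon and hypothalamus, a region that makes Nkx2-1 too, 8 were higher and 6 lower in HET (median 0.06), and their summed level was 12.99, 13.64 and 14.03 (lowest, median, highest) in WT and 12.92, 13.29 and 13.67 in HET, led by Tcf7l2, Lhx9 and Gbx2. The midbrain, hindbrain and spinal cord covariate itself had a lower mean in HET, so in that fit genotype and the amount of such tissue cannot be told apart. The part of the pallial and diencephalic tissue in the result was not tested.

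A further 30 genes of the eminences and their neurons did not share the direction of the 9 factors. At E14.5, 13 of 30 were higher and 17 lower in HET, with a median of −0.01. Limma called 0 of 30, with 7 at an unadjusted p under 0.05, against 769 of the 16877 genes tested. Robo2, Zic1 and Nr2f2 were the most abundant of the 30 and differed by −0.07, −0.01 and −0.00. Chosen after their values were seen, Dlx6os1, the antisense gene around Dlx6, differed by 0.30 and the eminence gene Vax1 by 0.27, while Gad1, a GABA-synthesising enzyme of the neurons made, differed by −0.20. Of 16 genes of striatal projection neurons, which arise from the lateral eminence, 8 were higher and 8 lower (median 0.00), and of 14 genes of adult cortical interneurons 6 were higher and 8 lower (median −0.10), with 0 called in either list and 1 and 3 at an unadjusted p under 0.05.

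Many of the 9 genes moved together from embryo to embryo. With the mean of its group taken from each value, the 36 pairs of genes had Pearson correlations of 0.07 to 0.95 over the 12 embryos, with a median of 0.635, 36 of 36 above 0 and 11 above 0.8. Without the 2 embryos farthest from the median 12 of the 36 pairs were below 0, and so were 20 of 36 among embryos 1 to 3 and 0 of 36 among embryos 4 to 6, with 6 embryos in each set. These correlations are descriptions, since the points share embryos, dissections and libraries. They also hold any difference between embryos 1 to 3 and 4 to 6, which in the deposited values depends on the later ages too. Dlx1 and Dlx2, the neighbours on chromosome 2, had r of 0.95, a Spearman rho of 0.90 and r of 0.85 without the 2 embryos farthest from the median. Dlx1 and Sp8 had r of 0.91, rho of 0.91 and r of 0.89 without the 2 farthest. Nkx2-1 was closest to Sp9, with r of 0.87, rho of 0.94 and r of 0.81 without the 2 farthest. For this pair r was 0.96 among embryos 1 to 3 and 0.40 among embryos 4 to 6.

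Dlx6 stood apart from the rest. Its correlations with the other 8 genes were 0.07 to 0.35, and with its neighbour Dlx5 r was 0.35, rho −0.03 and r without the 2 farthest −0.15. The correlation of Lhx6 with Dlx1 rested on few embryos, with r of 0.63, rho of 0.38 and r without the 2 farthest of −0.03, while Lhx6 and Sp9 had r of 0.60, rho of 0.46 and 0.49 without the 2 farthest. Some pairs also differed by replicate number. Among embryos 1 to 3 of both genotypes Nkx2-1 and Dlx1 had r of −0.67, and among embryos 4 to 6 they had 0.04, so the pooled r of 0.49 (rho 0.50, 0.23 without the 2 farthest) was not found within either set. Dlx1 and Sp8 kept r of 0.85 and 0.96 in the same sets.

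**Figure D2:**
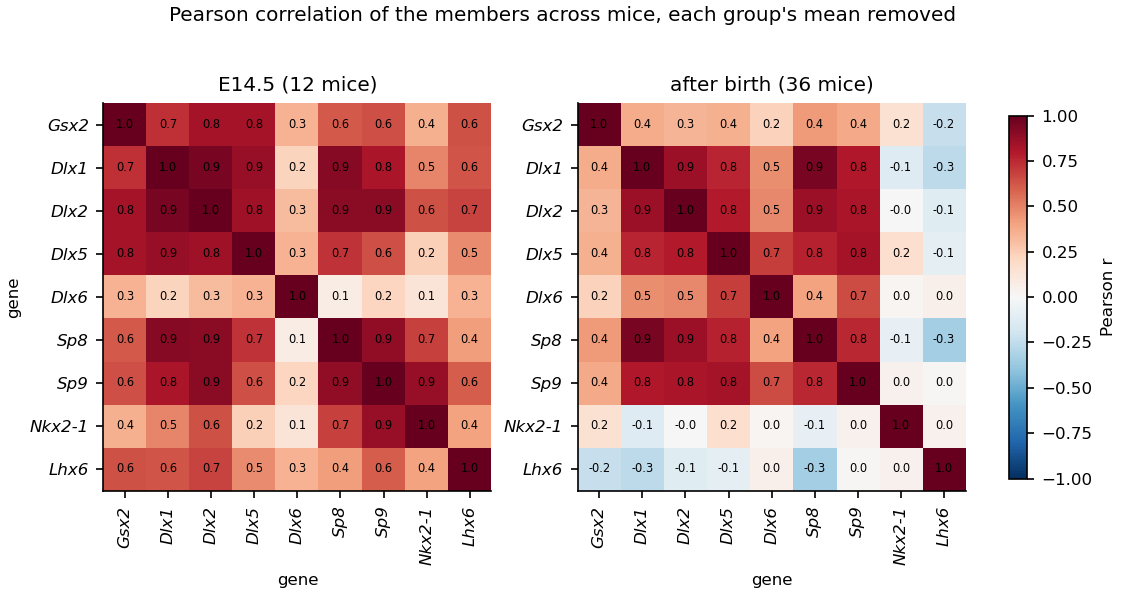
Pearson correlation of each pair of eminence factors across mice after the mean of each genotype and age was removed, in 12 embryos (left) and 36 mice after birth (right), on a colour scale from −1 to 1. In embryos Dlx6 has the weakest relations, and after birth Nkx2-1 and Lhx6 no longer go with the other 7.

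Over the same 12 embryos, the genes most like the mean of the 9 factors were Tcf3, Wee1, Chtf8, E2f8, Ncapd2, Clic4, Hmgb2, Lmnb1, Eya3 and Gldc. Their correlations ran from 0.98 for Tcf3 to 0.97, among 16868 genes with a median of 0.01, of which 258 were above 0.9. Tcf3 had rho of 0.93 and r of 0.94 without the 2 farthest embryos. Wee1 holds cells before mitosis, E2f8 represses genes of the S phase, Ncapd2 is a condensin subunit, and Hmgb2 and Lmnb1 are chromatin and nuclear envelope genes that are high in dividing cells. Of the 30 further eminence genes, 17 correlated above 0 and the median was 0.06. Among these, chosen after their values were seen, the transcription factors Sox6 at 0.88 and Lhx8 at 0.85 went with the factors. Gad1 went the opposite way at −0.88, as did Nxph1, a secreted protein of migrating interneurons, at −0.75. The medians of the other lists were 0.54 for the pallium, with the radial glia gene Pax6 highest at 0.90, 0.41 for the olfactory bulb, 0.19 for choroid plexus, blood, vessels and microglia, −0.34 for striatal neurons, −0.30 for adult interneurons, −0.18 for diencephalon and −0.40 for midbrain, hindbrain and spinal cord.

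From E14.5 to 1 month the 9 genes fell in both genotypes, 9 of 9 called, where 85.7 percent of 17285 genes were called in WT and 86.1 percent of 17227 in HET, in nearly equal numbers up (7509 and 7535) and down (7312 and 7305). The median difference of the 9 was −2.69 in WT and −2.74 in HET, against 0.02 over all genes in each. A call of this kind was the usual outcome of the comparison, and lists of other embryonic genes were also mostly lower. In WT, 14 of 14 diencephalon genes were lower (median −4.27), 13 of 14 tested midbrain, hindbrain and spinal cord genes (median −2.68) and 13 of 15 pallial genes (median −1.46).

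Nkx2-1 was at 9.45 to 10.36 in the WT embryos and at 4.04, 4.40 and 5.19 (lowest, median, highest) in WT mice of 1 month. It was far lower in each young adult than in any embryo, and it fell by 5.49 in WT (SE 0.19) and by 5.57 in HET (SE 0.14). Gsx2 was at 3.60, 4.04 and 4.31 in WT mice of 1 month, nearest the floor of the 9, and fell by 3.23 in WT (SE 0.18) and by 3.75 in HET (SE 0.18). Lhx6, the factor kept in adult interneurons, was at 9.05, 9.15 and 9.30 in WT mice of 1 month. Its embryos and adults did not overlap either, but its change was smaller, −1.35 in WT (SE 0.10) and −1.54 in HET (SE 0.07).

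The Dlx genes divided in the same comparison. In WT the change was −3.86 for Dlx2 (SE 0.14), −2.72 for Dlx1 (SE 0.11), −2.69 for Dlx5 (SE 0.15) and −1.35 for Dlx6 (SE 0.14). In HET the same genes changed by −4.17, −2.95, −2.74 and −1.45. Sp9 changed by −2.66 in WT and −2.67 in HET, and Sp8 by −2.42 and −2.69. The adjusted p-values were at most 1.58e-07 in limma.

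**Figure D3:**
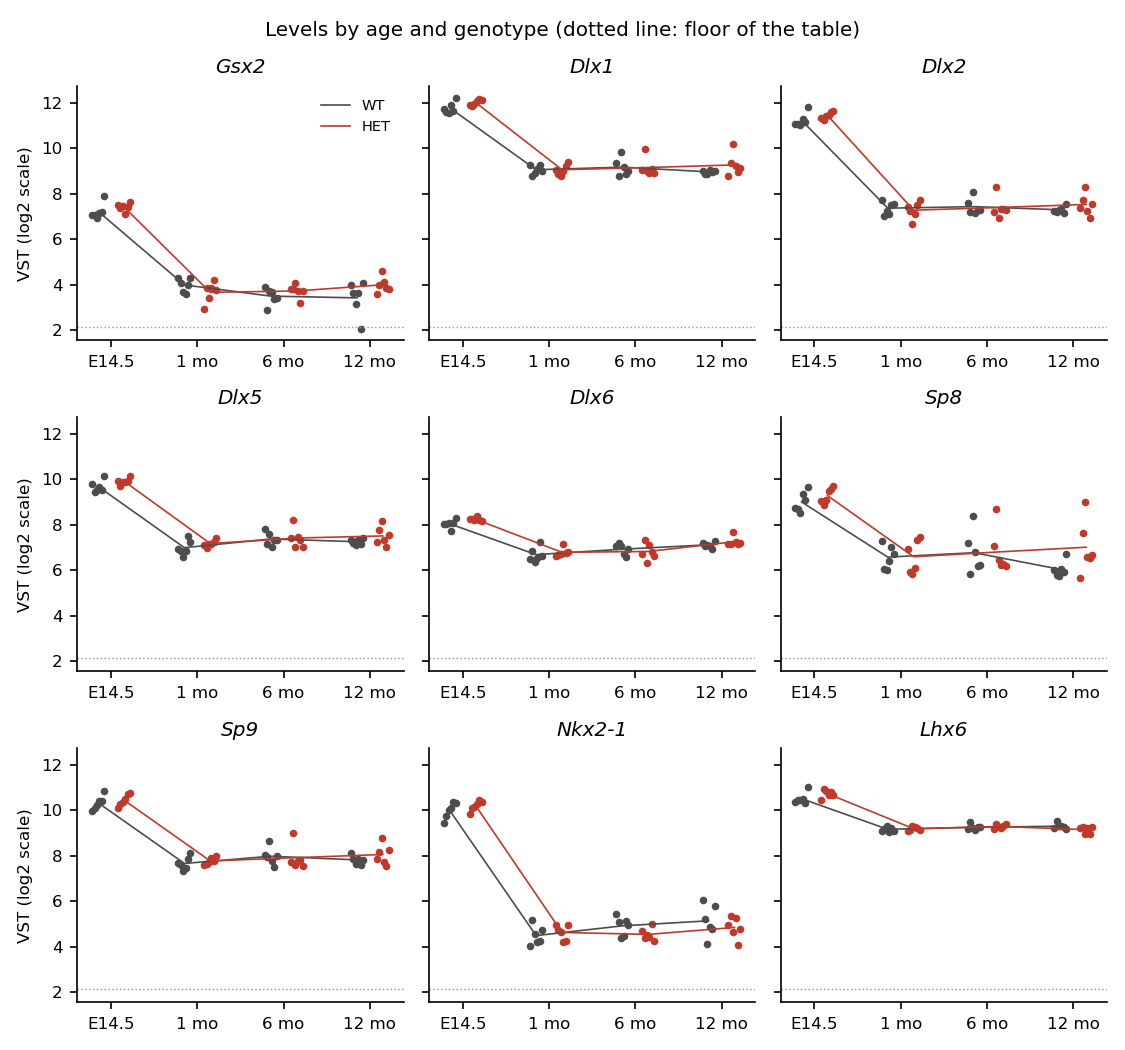
Level of each eminence factor (variance-stabilised, log2 scale) in the 48 mice by age, WT in grey and HET in red, with lines joining group means and a dotted line at the floor of 2.14. The mean of each gene drops between E14.5 and 1 month, and later differences are smaller, with Lhx6 near 9 and Gsx2 nearest the floor.

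Across all 36 mice after birth, 8 of the 9 genes stayed below the lowest embryo, by a gap of 3.402 for Nkx2-1 down to 0.05 for Dlx6. The share of all genes whose embryos and later mice separate in this way was not counted. In WT 85.7 percent of genes were called between E14.5 and 1 month, so this is not read as a trait of the factors. Sp8 was the exception, with 8.50 in the lowest embryo and 8.996 in the highest mouse after birth, HET mouse 3 at 12 months. A single value, Gsx2 in WT mouse 5 at 12 months, was at or under the floor, at 2.07.

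The wider list shows which eminence genes fell beside the factors. In WT all 30 further eminence genes were called between E14.5 and 1 month, 20 down and 10 up, where 85.7 percent of all genes were called, 7509 of 17285 up. Those named here were chosen after their values were seen. Those that fell included Otx2 (−4.93), Isl1, a gene of striatal neuron precursors (−4.56), the chemokine receptor Cxcr4 (−3.90) and Dlx6os1 (−2.01). Those that rose included Nkx6-2 (2.497), Gad1 (2.23), Etv1 (1.67) and Gad2 (0.86), as well as Slc32a1, the transporter that loads GABA into vesicles (0.95). Of 14 genes of adult cortical interneurons 11 rose and 2 fell in WT, among them, chosen in the same way, Vip, up by 6.61, and Sst, up by 2.13.

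Later ages differed less. From 1 to 6 months 1 of the 9 genes was called in WT, against 24.6 percent of 17255 genes, and 0 of 9 in HET, against 26.8 percent of 17208, by limma. At an unadjusted p under 0.05 there were 2 and 0 of 9, and 5348 and 5597 of all genes. The called gene was Dlx5, at 6.58, 6.89 and 7.53 (lowest, median, highest) in WT mice of 1 month and 7.04, 7.33 and 7.83 in WT mice of 6 months. The groups overlapped, Dlx5 rose by 0.38 (SE 0.15, adjusted p 0.0940 in limma), and in HET it differed by 0.24 and was not called. This call was lost in 1 fit of all 48 samples, without a filter on low values, without the trend of limma, at a threshold of 0.05, and without any of 8 mice, namely WT mice 1, 2, 3 and 4 of 1 month and WT mice 1, 3, 5 and 6 of 6 months, with adjusted p-values up to 0.229, the value without the filter. Gsx2 was at 2.90, 3.56 and 3.91 in WT mice of 6 months, against 3.60, 4.04 and 4.31 at 1 month, and differed by −0.49 (SE 0.20, adjusted p 0.101), not called but under 0.1 in 7 alternatives. From 6 to 12 months 0 of 9 were called in WT, against 0.00579 percent of 17283 genes, and 0 of 9 in HET, against 3.43 percent of 17254, with 1 and 2 at an unadjusted p under 0.05 in limma, and 1167 and 2744 of all genes. The 1 in WT was Sp8, at 5.85, 6.53 and 8.37 in mice of 6 months and 5.75, 5.97 and 6.73 in mice of 12 months, a difference of −0.73 (SE 0.32, adjusted p 0.724) that was −0.41 without WT mouse 3 of 6 months. The 2 in HET were Lhx6, at −0.14 (adjusted p 0.297), and Dlx6, at 0.43 (SE 0.14, adjusted p 0.149). Without HET mouse 2 of 6 months the difference of Dlx6 was 0.53 with an adjusted p of 0.0767.

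After birth, the genotypes were compared again to see whether a lower dose of Chd8 left a trace on the factors. At 1 month limma called 0 of 9, against 0.139 percent of 17221 genes, at 6 months 0 of 9, against 0.0927 percent of 17256, and at 12 months 0 of 9, against 0.0463 percent of 17288. At an unadjusted p under 0.05 there were 0, 0 and 1 of 9, and 1515, 1310 and 2000 of all genes. At 1 month the differences ran from −0.33 for Gsx2 to 0.18 for Dlx5 with a median of 0.03, and the lowest adjusted p was 0.704. Leaving out 1 mouse moved Gsx2 to −0.18 (HET mouse 1) and Dlx5 to 0.10 (WT mouse 3) or 0.29 (WT mouse 5). At 6 months they ran from −0.38 for Nkx2-1 to 0.23 for Gsx2 with a median of −0.01, and the lowest adjusted p was 0.683, with Gsx2 at 0.11 without WT mouse 2. At both ages WT and HET overlapped for each of the 9 genes.

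**Figure D4:**
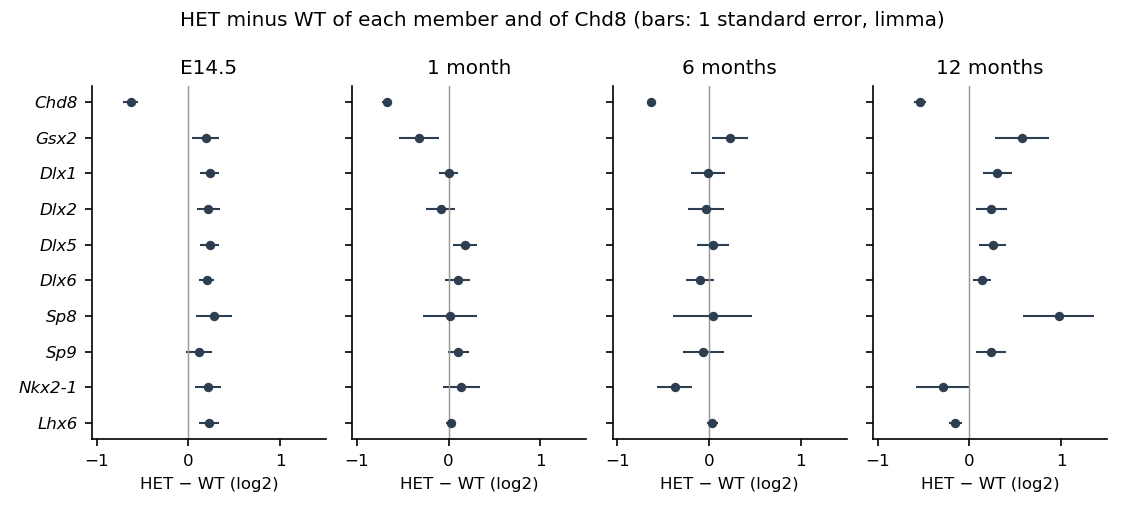
Difference between the HET and WT means (log2 scale) of Chd8 and of each eminence factor at the 4 ages, with bars of 1 standard error from limma and a line at 0. Chd8 is lower at each age, the 9 factors lie from 0.12 to 0.28 at E14.5, and the largest difference of a factor is that of Sp8 at 12 months, 0.97, with a wide bar.

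At 12 months the differences were wider, from −0.29 for Nkx2-1 to 0.97 for Sp8, with 7 of 9 above 0, a median of 0.24 and a median over all genes of 0.00. Sp8 was at 5.75, 5.97 and 6.73 (lowest, median, highest) in WT and at 5.65, 6.63 and 8.996 in HET. HET mouse 3 was far above the other mice, HET mouse 2 came next, HET mouse 1 was the lowest of the 12, and the groups overlapped. The difference of 0.97 (SE 0.39) had an adjusted p of 0.359 in limma and an exact permutation p of 0.0541. Without HET mouse 3 it was 0.58, and without HET mice 2 and 3, left out after seeing the data, 0.32. The same mouse bore on other factors: without HET mouse 3 the difference was 0.12 in place of 0.30 for Dlx1, 0.08 in place of 0.24 for Dlx2, 0.13 in place of 0.25 for Dlx5, 0.05 in place of 0.14 for Dlx6 and 0.09 in place of 0.24 for Sp9. For Dlx2 it was 0.36 without HET mouse 5, and for Nkx2-1 it ran from −0.49 without WT mouse 3 to −0.11 without WT mouse 1. Gsx2 differed by 0.58 (SE 0.29), with WT at 2.07, 3.65 and 4.07 and HET at 3.61, 3.91 and 4.61. The lowest WT mouse, mouse 5, was at the floor and HET mouse 3 was highest, and without WT mouse 5 the difference was 0.30.

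The mice that were high in Sp8 were high in markers of the olfactory bulb, the target of a stream of eminence-type newborn neurons in the adult. At 12 months the 6 markers of the list, Doc2g, Cdhr1, Th, Eomes, Tbx21 and Trh, had a higher mean in HET in 6 of 6, with a median difference of 1.07, 4 at an unadjusted p under 0.05 and 0 called. Of the 17288 genes tested by limma at this age 2000 had such a p, and 0.0463 percent were called. Cdhr1, a cadherin of the bulb's output neurons, differed by 1.05, Doc2g by 1.26, and Trh, a peptide hormone precursor, by 0.43. Eomes, which marks those same neurons and was chosen after its values were seen, differed by 1.92. HET mouse 3 was the highest of the 12 mice for each of these markers, with Cdhr1 at 11.19 and Doc2g at 9.95. In HET mouse 4, the next highest for Cdhr1, it was at 9.45. The summed level of the list was 8.70, 8.42, 8.77, 9.51, 8.99 and 9.62 in WT mice 1 to 6 and 8.11, 10.26, 12.24, 10.43, 9.45 and 9.55 in HET mice 1 to 6. None of the 6 markers was at the floor in all mice of an age. With the mean of the list as a covariate, chosen after seeing the data, the difference of Sp8 at 12 months was 0.14, that of Dlx1 −0.02 in place of 0.30, that of Dlx2 −0.02 in place of 0.24, and that of Sp9 0.03 in place of 0.24. Under the same covariate Dlx5 differed by 0.01 in place of 0.25, Dlx6 by 0.01 in place of 0.14 and Lhx6 by −0.09 in place of −0.15. Gsx2 differed by 0.31 in place of 0.58, and Nkx2-1 by −0.36 in place of −0.29. The covariate itself had a higher mean in HET, so in this fit genotype and the amount of bulb tissue cannot be told apart. The part of bulb tissue in the differences was not tested.

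The same relation ran through the 36 mice after birth. With group means removed, Dlx1 and the summed olfactory bulb list had r of 0.93, rho of 0.84 and r of 0.89 without the 2 mice farthest from the median. Sp8 and the list had r of 0.93, rho of 0.84 and r of 0.89 in the same order. For Sp8 the correlation was 0.95 at 1 month, 0.92 at 6 months and 0.92 at 12 months, and for Dlx1 0.94, 0.94 and 0.92, over 12 mice each. Mice 1 to 3 and mice 4 to 6 of each group gave r of 0.97 and 0.74 for Sp8. Dlx2 had r of 0.83, Dlx5 of 0.74 and Sp9 of 0.70, Dlx6 and Gsx2 had 0.45 and 0.37, and Nkx2-1 and Lhx6 had −0.07 and −0.32. Some of these varied by age. At 1, 6 and 12 months r was 0.49, 0.84 and 0.77 for Dlx5, 0.35, 0.91 and 0.58 for Sp9, and 0.01, 0.59 and 0.73 for Dlx6. The points share dissections and libraries, and these correlations carry no test. In the 12 embryos Sp8 and Dlx1 also followed this list, with r of 0.94 and 0.93, rho of 0.90 and 0.89, and r of 0.94 and 0.91 without the 2 farthest, but there its most abundant gene by far was Eomes, which in embryos marks progenitors of the pallium, and for Sp8 r was 0.15 among embryos 1 to 3 and 0.98 among embryos 4 to 6. The highest mice were of both genotypes: at 6 months WT mouse 3 had a summed list of 11.37 and HET mouse 2 of 11.56, and they also had the highest Sp8, at 8.37 and 8.68.

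**Figure D5:**
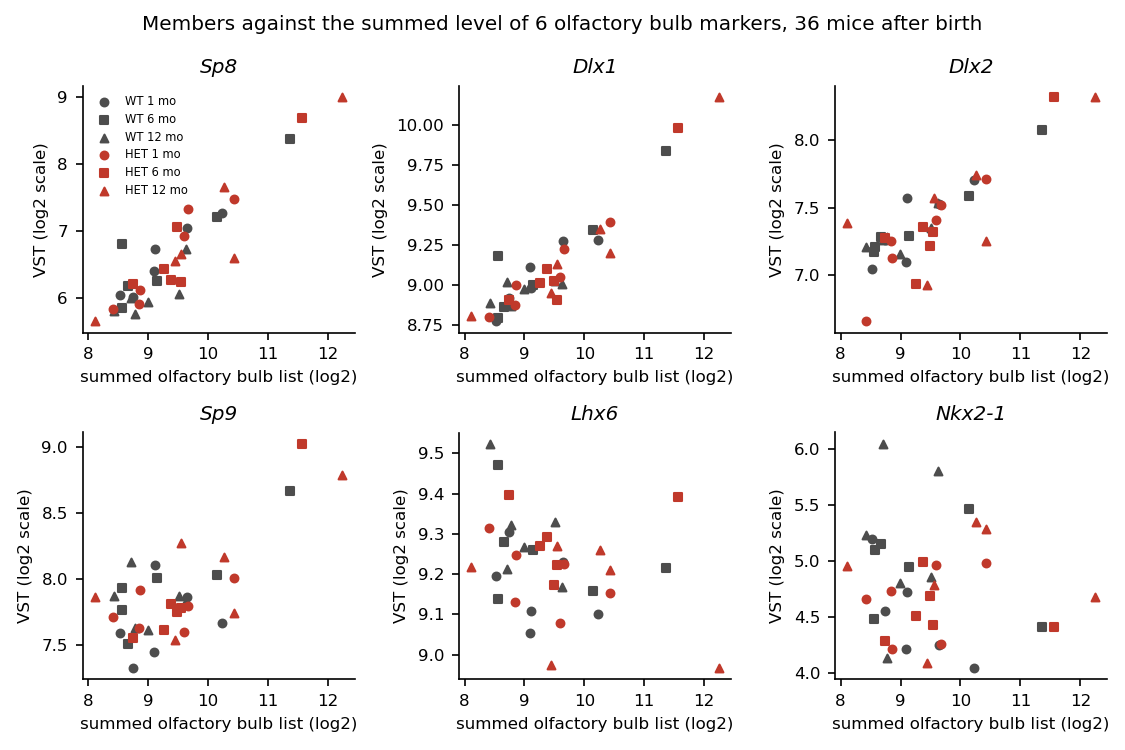
Level of 6 eminence factors (variance-stabilised, log2 scale) against the summed level of the 6 olfactory bulb markers (log2) in the 36 mice after birth, WT in grey and HET in red, with a symbol for each age; the vertical axes differ between genes. Sp8, Dlx1 and Dlx2 climb with the markers in both genotypes, 3 mice sit far to the right, and Lhx6 and Nkx2-1 do not climb.

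After birth the same pairs were correlated again. Among the 36 pairs r ran from −0.34 to 0.95 with a median of 0.36 and 6 above 0.8, over 36 mice with group means removed. Dlx1 and Sp8 had the highest r, 0.95, with rho of 0.90 and 0.91 without the 2 farthest mice. Dlx5 and Dlx6, which did not go together in embryos, had r of 0.69, rho of 0.58 and 0.57 without the 2 farthest. Nkx2-1 and Lhx6, linked in the medial eminence, had r of 0.04, rho of 0.04 and 0.01 without the 2 farthest. The genes most like Lhx6 were Slc35b4 at 0.74, Lingo3 at 0.73, Pmepa1 at 0.72, Strn at 0.72 and Nfe2l1 at 0.70, and of 17248 genes 0 were above 0.9.

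Lhx6 at 12 months was at 9.17, 9.29 and 9.52 (lowest, median, highest) in WT and at 8.97, 9.21 and 9.27 in HET. Each HET mouse lay below the WT median, but the groups overlapped, and the difference of −0.15 (SE 0.08) had an adjusted p of 0.444 in limma. Whether the genotype effect of a factor at a later age differed from that at E14.5 was tested directly in 1 fit of the 48 samples. Limma called 0 of 9 at 1 month (0 percent of 17249 genes), 0 of 9 at 6 months (0 percent of 17297) and 0 of 9 at 12 months (0.0809 percent of 17309), and at an unadjusted p under 0.05 there were 0, 0 and 1 of 9, and 806, 904 and 2007 of all genes. That 1 was Lhx6 at 12 months, whose difference was 0.37 below that at E14.5, a change of −0.37 (SE 0.11, adjusted p 0.209). With replicate number as a block within age, limma called it (adjusted p 0.0953), along with 261 genes in all. The replicate numbers were not treated as pairs.

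Of the 14 genes of adult cortical interneurons, 1 was called at 12 months, against 0.0463 percent of 17288 genes, and 6 had an unadjusted p under 0.05, against 2000 of all genes. Cort, the neuropeptide cortistatin of interneurons of the Lhx6 lineage, was at 6.92, 7.13 and 7.27 (lowest, median, highest) in WT and at 6.44, 6.57 and 6.69 in HET. Each HET mouse lay below each WT mouse, and Cort fell by 0.54 (SE 0.09, adjusted p 0.0747 in limma). The call was lost with read depth as a covariate (0.115), with a replicate block (0.213), and within replicates 1 to 3 (0.941) or 4 to 6 (0.555) alone. It was also lost at a threshold of 0.05 and with the olfactory bulb list as a covariate (0.425). In these fits the difference stayed between −0.58 and −0.50. Leaving out any of 7 mice, WT mice 1, 5 and 6 and HET mice 2, 3, 4 and 5, ended the call too. There the adjusted p in limma ran up to 0.228 while the difference stayed between −0.58 and −0.51. Chosen after their values were seen, Crhbp and Sst, which mark the same interneurons, differed by −0.34 (adjusted p 0.208) and −0.26 (adjusted p 0.290) and were not called. Over the list 6 genes were higher and 8 lower, with a median of −0.04 and differences from −0.54 to 0.50. The largest rise, 0.50, was close in size to the fall of Cort. Of the 30 further eminence genes 19 were higher and 11 lower, with 0 called and 2 at an unadjusted p under 0.05.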

How the data were processed

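The authors' deposited table held variance-stabilised values on a log2 scale for 24444 genes in 48 samples. By the submitters' processing notes, reads were aligned to mm9 with STAR 2.5.2b, quantified with Salmon 0.11.3 and processed with DESeq 1.22.2. Counts were not used here. Genotypes were compared at each age, ages within each genotype, and the change of the genotype effect between ages, with limma 3.58.1 (trend, R 4.3.3) over every gene with a mean 0.5 or more higher than the floor. All 9 members passed this filter at each age. P-values were adjusted by Benjamini-Hochberg and called under 0.1. Exact permutation tests were two-sided, and with 6 against 6 the smallest p is 0.0022. Summed levels are the log2 of the sum of 2 to the power of each value. Python 3.11.15, numpy 2.4.6, scipy 1.17.1 and pandas 2.3.3 were used. Scripts were tested on simulated data.

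The members and lists were chosen with earlier results of these data known. Named genes were the 9 members, Chd8, in genotype comparisons where genes of a list are named its called genes or else its 3 most abundant, and the 10 genes (5 for Lhx6) with the highest correlation. Others are said to have been chosen after their values were seen. Alternatives were other filters, no trend, quantile normalization, a threshold of 0.05, read depth as a covariate, replicate block, replicates 1 to 3 or 4 to 6 alone, leaving out each mouse, and those added after seeing the data. Promoters are from RefSeq (GRCm38.p6) and gene positions from the NCBIM37 annotation.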

Additional observations from a re-analysis of the deposited data

Results flagged for a closer look

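The 9 factors and Chd8 were each looked at in the 8 groups of 6 mice, 80 cases in all. In 15 of these the highest or lowest mouse was far from the other 5, by a rule that flags about 1 in 20 for a single gene by chance. The 80 cases share the same 8 groups of mice and many of the genes moved together. They are not independent, so 15 of 80 cannot be set against that rate. At E14.5 WT embryo 6 stood above the others for Dlx2 (11.82, others 11.00 to 11.28), Gsx2 (7.92, others 6.96 to 7.21) and Lhx6 (11.01, others 10.32 to 10.49), and HET embryo 4 stood above the others for Dlx6 (8.38, others 8.19 to 8.25). At 6 months HET mouse 2 stood above the others for Dlx1 (9.98, others 8.91 to 9.10), Dlx2 (8.32, others 6.93 to 7.36), Dlx5 (8.22, others 7.03 to 7.47), Sp8 (8.68, others 6.20 to 7.06) and Sp9 (9.02, others 7.55 to 7.81). The same mouse was the highest of its group for 6 of the 9 factors. Dlx6 was also set apart in HET mouse 4 at 1 month (7.15, others 6.62 to 6.81) and in HET mouse 3 at 12 months (7.66, others 7.14 to 7.26), and Sp8 in WT mouse 6 at 12 months (6.73, others 5.75 to 6.06). For Chd8, HET embryo 1 was low (11.60, others 11.90 to 12.03), WT mouse 6 at 12 months was low (11.36, others 11.63 to 11.80) and HET mouse 6 at 12 months was high (11.17, others 11.09 to 11.11).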

How the results depend on the processing

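Under the alternatives run, 0 of the 9 factors were called between genotypes at any age. Of their genotype differences 946 kept their direction and side of the threshold and 52 changed direction. The cause of these changes was not tested. At E14.5 Gsx2 was −0.0363 within replicates 4 to 6. Within replicates 1 to 3, 1 month gave Dlx1 −0.0833, Lhx6 −0.0263 and Sp8 −0.218, and 6 months gave Dlx1 0.0161 and Lhx6 −0.00447. Within replicates 4 to 6, Dlx2 was 0.0540 at 1 month, 0.0652 at 6 months and −0.0939 at 12 months, and at 6 months Dlx6 was 0.119 and Sp8 −0.174. Added after seeing the data, the olfactory bulb covariate gave Dlx1 −0.0149 and Sp8 −0.0330 at 1 month, Dlx5 −0.0137 and Sp8 −0.130 at 6 months, and Dlx1 −0.0224 and Dlx2 −0.0197 at 12 months. Also added then, leaving out WT 3 and HET 2 at 6 months gave Dlx5 −0.0789 and Sp8 −0.0165, and leaving out HET 2 and 3 at 12 months gave Dlx2 −0.0126.

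Leaving out each mouse in turn, the genotype difference at 1 month ran from −0.0666 to 0.0530 for Dlx1, −0.175 to 0.0360 for Dlx2 and −0.159 to 0.170 for Sp8. At 6 months it ran from −0.179 to 0.119 for Dlx1, −0.219 to 0.0924 for Dlx2, −0.119 to 0.131 for Dlx5, −0.336 to 0.357 for Sp8 and −0.282 to 0.0750 for Sp9. Of the age differences 1036 were the same, 19 changed direction, 12 gained and 12 lost a call. From 1 to 6 months in WT the ranges were −0.0192 to 0.189 for Dlx1, −0.0591 to 0.137 for Dlx2 and −0.126 to 0.377 for Sp8, without mouse 3 of 6 months at the low end. In HET they were −0.0664 to 0.166 for Dlx1, −0.0615 to 0.215 for Dlx2, −0.0615 to 0.135 for Dlx6, −0.0894 to 0.167 for Gsx2, −0.158 to 0.389 for Sp8 and −0.0722 to 0.222 for Sp9, lowest without mouse 2 of 6 months for all but Gsx2 (mouse 1 of 1 month). From 6 to 12 months they were −0.206 to 0.194 for Gsx2 in WT, and in HET, lowest without mouse 3 of 12 months, −0.0680 to 0.278 for Dlx1, −0.0245 to 0.316 for Dlx2, −0.0359 to 0.253 for Dlx5, −0.192 to 0.577 for Sp8 and −0.00796 to 0.359 for Sp9.

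The count of factors called from 1 to 6 months in WT, 1 in the report, was 0 in 1 fit of all 48 samples (3233 of all genes called, against 4242 in the report), with no filter (3560) and at an adjusted p under 0.05 (3112), and 2 with a filter at 1.5 above the floor (4278) and with quantile normalization (4549). Leaving out a mouse gave 0 to 2. From 6 to 12 months in HET leaving out a mouse gave 0 to 1. The 9 called factors from E14.5 to 1 month stayed 9 under each alternative run.

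The replicate block within age called 1 factor for a changed genotype effect at 12 months, Lhx6 (adjusted p 0.0953), with 261 of all genes called, against 14 in the report, and changed no other count of factors called. The replicate numbers were not treated as pairs, since the rule set for this asked for a correlation over 0.1 in each pair: of 6 same-numbered pairs, correlations over all genes were above 0.1 in 4 at E14.5 (0.01 to 0.58, mean 0.23, other pairs −0.05), 0 at 1 month, 1 at 6 months and 0 at 12 months. At E14.5, 4 of 6 WT and 3 of 6 HET mice correlated best with their own number, the blocked adjusted p-values of the 9 factors were 0.327 to 0.484, and HET was above the same-numbered WT embryo in 9, 9, 9, 8, 9 and 3 of 9 factors in embryos 1 to 6. With the replicate block the adjusted p of Cort at 12 months was 0.213. Read depths were used as a covariate only, and the values hold no counts, so what depth limits is unknown.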

Other observations

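Of 16 genes of striatal projection neurons, a lineage of the lateral eminence, 16 were higher and 0 lower in HET at 1 month (median difference 0.30, 0 called by limma, 0 at an unadjusted p under 0.05), and at 12 months 3 were higher and 13 lower (median −0.22, 0 called, 2 at an unadjusted p under 0.05). Their summed level was 14.01, 14.63 and 15.32 (lowest, median, highest) in WT and 14.59, 14.94 and 15.23 in HET at 1 month, so the WT mice spanned the HET mice. Over all genes limma called 0.139 percent of 17221 at 1 month and 0.0463 percent of 17288 at 12 months. At an unadjusted p under 0.05 there were 1515 and 2000 of all genes.

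Replicates 1 to 3 and 4 to 6, averaged over all ages, had means within 0.01 of each other for all 24444 genes, with a largest difference of 3.2e-14. A difference between these 2 sets was therefore removed from the deposited values before they were shared. With equal means over all ages, a second set that is higher in some groups must be lower in others, so opposite directions between ages follow from this. Within E14.5 the second set was higher for 8 of 9 factors in WT and 7 of 9 in HET, and within 6 months for 0 of 9 in WT and 3 of 9 in HET. Within 1 month it was higher for 6 of 9 in WT and 8 of 9 in HET, and within 12 months for 5 and 1 of 9. At 1 month, HET mouse 1 had a summed level of 12.40 for the diencephalon markers, where the other 11 mice of that age were at 8.82 to 9.47.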
